A study of Mus musculus with 30 samples.

Results

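The acetyl marks of histone H3 on lysine 27 (H3K27ac) and lysine 18 (H3K18ac) were compared within the lymphoproliferative disease (LPD) of Crebbp-null mice. The 4 peak lists of LPD, 2 per mark, were merged into 42804 regions, and each region was classed by the lists with a peak in it. H3K27ac-only regions had a peak in both H3K27ac lists and in neither H3K18ac list, and there were 896 of them (2.09% of all regions). H3K18ac-only regions were the reverse, with 4361 (10.2%), and shared regions had a peak in all 4 lists, with 18162 (42.4%). The remaining 19385 regions had another pattern of lists. The clearest contrast between the classes was position: 32.9% of H3K27ac-only, 8.92% of H3K18ac-only and 48.7% of shared regions were within 1 kb of an end of a protein-coding gene.

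LPD was profiled as unsorted splenocytes of C57BL/6 mice labelled Crebbp-/- (CBPfl/fl:Mx-Cre+), with the antibodies ab4729 for H3K27ac and ab1191 for H3K18ac. Mx-Cre is a Cre recombinase driven by the interferon-inducible Mx1 promoter, which acts in blood-forming cells in general and not in B cells alone. Wild-type B cells, used beside LPD, were B220+ cells of C57BL/6 mice with the floxed gene and no Cre (CBPfl/fl:Mx-Cre-), again with 2 lists per mark. Further lists were 2 for H3K56ac in each tissue, 1 for CBP in wild-type B cells, and 1 for H3K27ac in progenitors of each genotype. Genotype, disease and sorting all differ between LPD and B cells and cannot be told apart. The labels give no age and do not say whether lists 1 and 2 came from separate animals, so the spread between lists may be technical. In bulk tissue, fewer cells with a mark and less of the mark per cell cannot be told apart. The lists give positions only, so read depth is unknown.

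The tissue carried peaks at B cell markers in both marks. Of 8 such genes, among them Cd79a, Ms4a1 and Pax5, 8 had peaks in both H3K27ac lists and 7 in both H3K18ac lists, with summed lengths of 58.2 to 83.3 kb and 47.1 to 74.3 kb. Of 8 T and NK cell markers, 7 were at 0 in all 4 lists, Cd3e, Cd4 and Cd8a among them, and the summed length was 0.589 to 1.72 kb. Of 8 myeloid markers, 7 were at 0 for each mark, including Lyz2, Mpo and S100a8, with at most 0.251 kb in a list. Of 5 stromal and endothelial markers, 4 had peaks in both lists of each mark (11.4 to 20.4 kb in all, most of it at Pecam1, which B cells also carried), and Col1a1, at 0 in the wild-type B cell lists of both marks, had 0.434 to 1.003 kb. Of 7 erythroid and megakaryocyte markers, 2 had peaks in both H3K27ac lists and 3 in both H3K18ac lists, with 1.23 to 3.49 kb in all. Of 4 stem and progenitor and 3 plasma cell markers, none had a peak in both lists of a mark, with Kit, Cd34, Gata2, Sdc1 and Jchain at 0. The part of other cell types in the classes was not tested.

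CBP, encoded by Crebbp, and its relative p300, encoded by Ep300, are the main acetyltransferases for H3K27 and H3K18, and both marks are found at active promoters and enhancers. H3K27ac is the usual mark by which active enhancers are told from primed ones. Loss of CBP in blood-forming cells leaves p300 as the other enzyme of the pair, and CREBBP mutations are common in human B cell lymphomas. Crebbp itself (chr16:4081334-4213957) had 1 region, which was shared. H3K27ac peaks covered 1.69 and 1.56 kb there and H3K18ac peaks 1.57 and 1.05 kb, which does not check the deletion, as the labels do not place it in the gene. Over the Ep300 span and 1 kb on either side (chr15:81586209-81652077) the 1 region was also shared, with 2.18 and 2.12 kb of H3K27ac and 1.83 and 1.51 kb of H3K18ac.

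The promoters below are examples of a start site in each class and need not be typical of it. They are the 2 per class with the widest region of the class that holds the whole promoter window, which runs from 250 bases before to 50 after the start in RefSeq (build GRCm38.p6, the same coordinates as mm10). Capitals mark matches to 6 short motifs, on either strand: the cAMP response element TGACGTCA (CRE), the ETS site CCGGAAG, the CCAAT box as ATTGGC, the E-box CAGCTG, the TATA box TATAAA and the SP/KLF box GGGCGG. No motif holds another. Zbtb7b and Tlcd3a are H3K27ac-only, Lrp8 and Card10 H3K18ac-only, and H2-Aa and H2-Eb1 shared.
Zbtb7b: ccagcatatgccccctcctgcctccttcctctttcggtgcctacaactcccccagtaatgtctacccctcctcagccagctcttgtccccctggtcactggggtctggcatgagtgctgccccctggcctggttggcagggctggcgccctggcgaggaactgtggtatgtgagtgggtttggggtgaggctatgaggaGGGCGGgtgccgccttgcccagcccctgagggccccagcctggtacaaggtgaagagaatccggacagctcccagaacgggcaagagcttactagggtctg
Tlcd3a: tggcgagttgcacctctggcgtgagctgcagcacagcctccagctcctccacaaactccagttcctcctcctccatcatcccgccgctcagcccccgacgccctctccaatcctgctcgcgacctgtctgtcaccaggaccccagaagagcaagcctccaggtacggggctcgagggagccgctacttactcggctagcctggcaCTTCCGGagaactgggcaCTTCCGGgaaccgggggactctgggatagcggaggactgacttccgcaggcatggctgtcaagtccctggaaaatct
Lrp8: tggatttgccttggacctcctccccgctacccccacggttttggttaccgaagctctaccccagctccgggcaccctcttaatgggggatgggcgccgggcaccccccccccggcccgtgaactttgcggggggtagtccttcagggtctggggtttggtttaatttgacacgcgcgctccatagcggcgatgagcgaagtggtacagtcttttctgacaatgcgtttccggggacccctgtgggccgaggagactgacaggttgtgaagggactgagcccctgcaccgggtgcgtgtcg
Card10: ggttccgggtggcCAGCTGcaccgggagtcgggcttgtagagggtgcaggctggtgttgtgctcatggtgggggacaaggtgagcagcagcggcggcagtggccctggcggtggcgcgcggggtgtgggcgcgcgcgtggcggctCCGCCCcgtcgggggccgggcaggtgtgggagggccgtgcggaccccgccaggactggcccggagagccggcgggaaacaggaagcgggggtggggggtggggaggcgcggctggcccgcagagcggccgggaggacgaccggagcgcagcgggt
H2-Aa: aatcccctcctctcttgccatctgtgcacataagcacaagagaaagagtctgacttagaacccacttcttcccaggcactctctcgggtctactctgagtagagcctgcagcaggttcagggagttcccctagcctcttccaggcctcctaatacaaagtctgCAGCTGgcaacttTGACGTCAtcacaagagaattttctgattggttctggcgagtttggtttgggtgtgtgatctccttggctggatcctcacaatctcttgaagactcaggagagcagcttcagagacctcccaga
H2-Eb1: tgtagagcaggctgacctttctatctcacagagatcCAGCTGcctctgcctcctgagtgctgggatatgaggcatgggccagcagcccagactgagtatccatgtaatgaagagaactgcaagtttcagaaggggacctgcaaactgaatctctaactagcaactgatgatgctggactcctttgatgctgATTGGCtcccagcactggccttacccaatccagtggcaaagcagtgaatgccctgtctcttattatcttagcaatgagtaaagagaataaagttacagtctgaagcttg

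The Zbtb7b window (chr3:89387622-89387921, minus strand) is an inner start of the gene of ThPOK, a zinc finger factor of lymphocytes. It lay in a region of 1575 bp that H3K27ac covered by 1575 and 717 bp, with no B cell peak of either mark. The Tlcd3a window (chr11:76179421-76179720, plus strand) holds 2 ETS matches in a region of 982 bp, which H3K27ac covered by 982 and 463 bp. Lrp8 (lipoprotein receptor; chr4:107802635-107802934, plus strand) had 1349 and 937 bp of H3K18ac in a region of 1416 bp and no match to the 6 motifs. Card10 (a scaffold of NF-kB signalling; chr15:78802993-78803292, minus strand) had 1370 and 753 bp, and the highest G+C content of the 6 windows, 77.0%. H2-Aa (chr17:34287774-34288073, minus strand) and H2-Eb1 (chr17:34305617-34305916, plus strand) encode chains of MHC class II and share 1 region of 26821 bp, the widest of all shared regions. H3K27ac covered 26554 and 23570 bp of it and H3K18ac 25694 and 24619 bp. Class II promoters are known to bear a CRE-like X2 box, and the H2-Aa window holds a CRE match. Only 3 and 0 CpG dinucleotides lie in the H2-Aa and H2-Eb1 windows, against 7 to 34 in the other 4. These 2 are not typical of shared windows, whose median was 23. Zbtb7b, with 7, was also below the median of 19 in H3K27ac-only windows.

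Whether the marks differ in extent was asked list by list. The H3K27ac lists held 31924 and 27581 peaks and the H3K18ac lists 39529 and 35247, so both H3K18ac lists were longer than both H3K27ac lists. The log2 ratio of the means on the log scale was 0.33, with 0.14 to 0.52 over the 4 pairings of 1 list of each mark. Covered length was 26.2 and 18.2 Mb for H3K27ac and 29.5 and 21.4 Mb for H3K18ac. These overlap, with a log2 ratio of 0.20 and pairings from -0.29 to 0.69. Median peak width was 543 and 477 bp for H3K27ac and 499 and 435 bp for H3K18ac, which overlap as well (log2 ratio -0.13, pairings from -0.32 to 0.07). The gene-end share of peaks was 36.6 and 41.3% for H3K27ac and 31.9 and 33.4% for H3K18ac, with no overlap and a difference of -6.32 points (pairings from -9.40 to -3.24). An exact two-sided permutation test of 2 lists against 2 cannot go below p = 0.333, and gave 0.333 for peak number and gene-end share and 0.667 for covered length and width. List 1 of each mark was longer and its peaks wider than list 2, and the spread between lists of a mark was larger than the difference between marks for covered length and width.

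**Figure D1:**
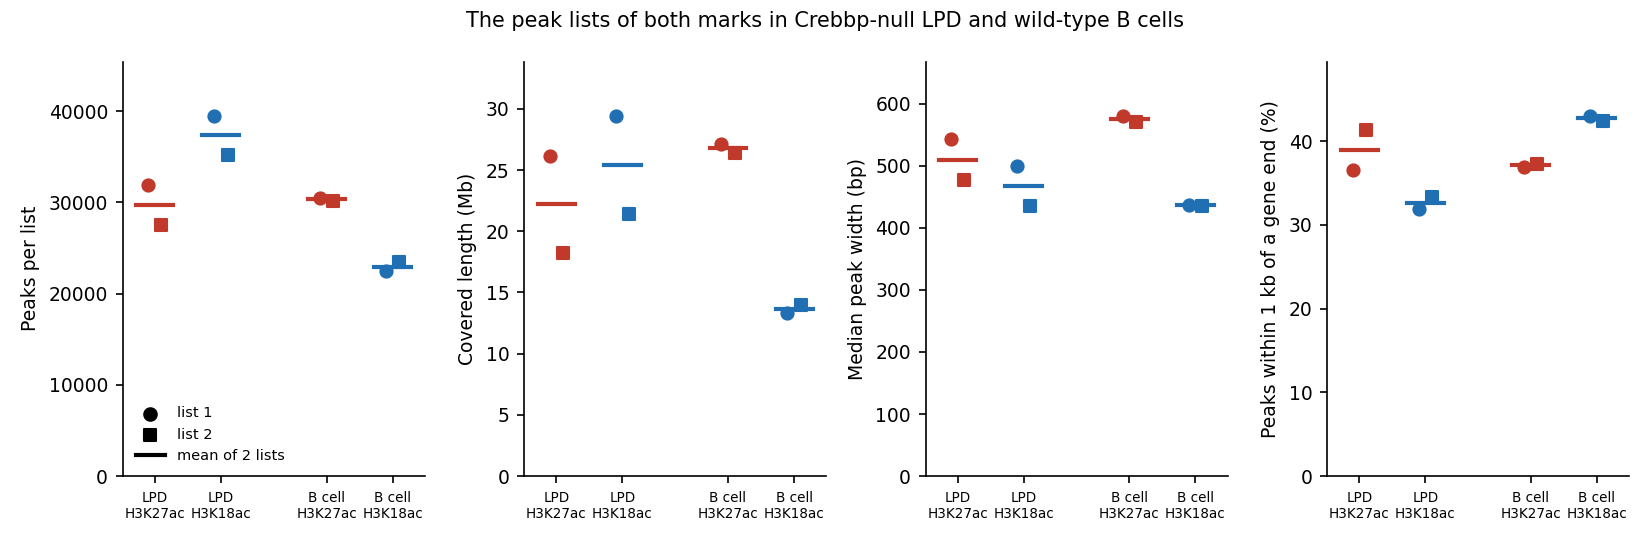
Peak number, covered length, median peak width and the share of peaks within 1 kb of a gene end for each list of both marks. Circles are lists numbered 1, squares lists numbered 2 and bars their mean. In LPD both H3K18ac lists hold more peaks and a lower gene-end share than both H3K27ac lists, and in wild-type B cells both orders are reversed.

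In wild-type B cells the order of the marks was the other way round for peak number and gene-end share. H3K27ac had 30523 and 30198 peaks there and H3K18ac 22485 and 23456, a log2 ratio of -0.40 (pairings from -0.44 to -0.36). The gene-end share was 37.0 and 37.3% for H3K27ac and 43.1 and 42.4% for H3K18ac. Covered length had a log2 ratio of -0.97 in B cells (pairings from -1.03 to -0.91). That of median peak width was -0.40 (pairings from -0.42 to -0.39), negative as in LPD. H3K18ac thus had the lower gene-end share in LPD and the higher one in B cells. The difference between tissues was not tested for any of these measures.

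The lists of one mark in LPD were little closer to each other than to the lists of the other mark. The sequence that lists 1 and 2 had in common, as a share of their union, was 66.0% for H3K27ac and 65.9% for H3K18ac. Between marks it was 64.2% for the lists numbered 1, 59.5% for those numbered 2, and 56.6 and 54.8% for the crossed pairs. In wild-type B cells the same shares were 80.7 and 67.6% within a mark and 43.3 to 45.2% between marks. The share of peaks of the shorter H3K27ac list that overlapped list 1 was 96.8%, and 94.0% for H3K18ac, so list 2 of each mark was nearly contained in list 1.

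The 15 patterns of lists show how much of the class sizes rests on single lists. Peaks of list 1 alone made 6115 regions for H3K18ac and 3515 for H3K27ac, and peaks of list 2 alone 1690 and 406. A further 2914 regions had both H3K18ac lists and only list 1 of H3K27ac, and 1649 had both H3K27ac lists and only list 1 of H3K18ac. The log2 ratio of H3K18ac-only to H3K27ac-only regions was 2.28. Without list 1 of H3K18ac, H3K27ac-only regions numbered 2545 and the log2 ratio was 1.25. H3K18ac-only regions numbered 7275 without list 1 of H3K27ac and 10476 without list 2 of H3K18ac. Without list 2 of H3K27ac, 4591 H3K18ac-only and 4411 H3K27ac-only regions were left to compare, a log2 ratio of 0.058. With the 4 lists held to 27581 peaks each, the widest of each list, the counts were 2491 and 2201 (0.18). By single pairs of lists, the ratio was 1.21, 3.42 and 1.58 in 3 of 4 pairings and -0.43 for H3K27ac list 1 with H3K18ac list 2. The surplus of H3K18ac-only regions was thus nearly gone without list 2 of H3K27ac, the shortest of the 4, or with lists of equal length.

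**Figure D2:**
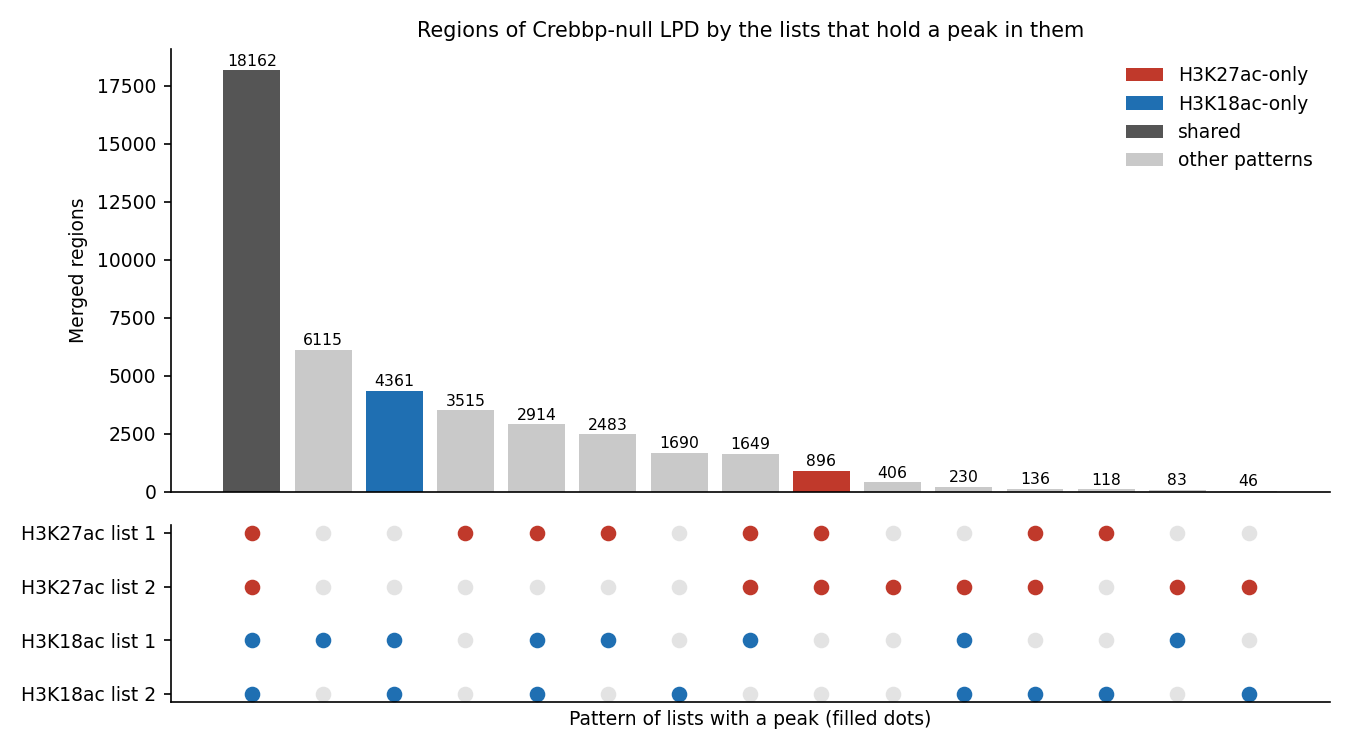
Number of merged LPD regions (vertical axis) for each of the 15 patterns of the 4 lists, with filled dots naming the lists that hold a peak. Shared regions (18162) are the most common pattern, list 1 of H3K18ac alone gives 6115, and H3K27ac-only regions number 896 against 4361 H3K18ac-only.

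By the same rule, wild-type B cells had the reverse balance: 8003 H3K27ac-only, 668 H3K18ac-only and 13725 shared regions of 33793. There the log2 ratio was negative in each of the 4 pairings, from -2.92 to -2.39.

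H3K27ac-only regions were at gene ends and inside genes more often than H3K18ac-only regions. Of the 896 H3K27ac-only regions, 295 were that close to a gene end (95% Wilson interval 29.9 to 36.1%), and of the 4361 H3K18ac-only regions 389 (8.11 to 9.80%). Shared regions were at gene ends in 8845 of 18162 cases (48.0 to 49.4%). These intervals cover counting error only. Regions that overlapped a protein-coding gene made up 88.3% of H3K27ac-only, 49.3% of H3K18ac-only and 75.4% of shared regions. The median distance to the nearest gene end was 3.10 kb for H3K27ac-only, 19.8 kb for H3K18ac-only and 1.31 kb for shared regions. Over 50 kb from any gene end lay 31 H3K27ac-only regions (3.46%) and 1141 H3K18ac-only regions (26.2%).

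The gene-end difference between the mark-only classes was 24.0 points, and it had the same sign in each of the 4 pairings of single lists, from 13.7 to 23.7 points. Without list 1 or list 2 of H3K27ac it was 15.8 or 14.4 points. It was 35.5 points with lists of equal peak number and 51.3 points with only peaks of at least 500 bp. In wild-type B cells the same difference was 2.33 to 4.13 points over the pairings, below the smallest LPD value. The 2 classes of B cells had gene-end shares of 23.9% (H3K27ac-only) and 22.6% (H3K18ac-only).

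Both mark-only classes were narrow. Median region width was 417 bp for H3K27ac-only (quartiles 333 and 555), 461 bp for H3K18ac-only (354 and 623) and 1037 bp for shared regions (687 and 1618). The medians of the length each list covered in its own class were 376 and 267 bp in the H3K27ac lists and 420 and 312 bp in the H3K18ac lists, so the difference between the 2 classes was smaller than that between lists. In shared regions the 4 lists covered 902, 667, 901 and 693 bp. Regions over 1 kb made up 3.35% of H3K27ac-only, 5.43% of H3K18ac-only and 52.3% of shared regions. Shared regions held 24.6 Mb or 70.0% of the merged sequence, H3K18ac-only regions 2.30 Mb and H3K27ac-only regions 0.430 Mb.

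Below 1 kb, the gene-end order of the classes was the same in each range of widths. Among regions of 300 to 499 bp, 37.9% of H3K27ac-only, 9.85% of H3K18ac-only and 49.7% of shared ones lay at gene ends. Among those of 500 to 999 bp the shares were 28.6, 7.01 and 50.6%. At 1 kb and over, 2 of 30 H3K27ac-only regions (6.67%) and 17 of 238 H3K18ac-only regions (7.14%) lay there, and a difference was not detectable at this number of regions.

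**Figure D3:**
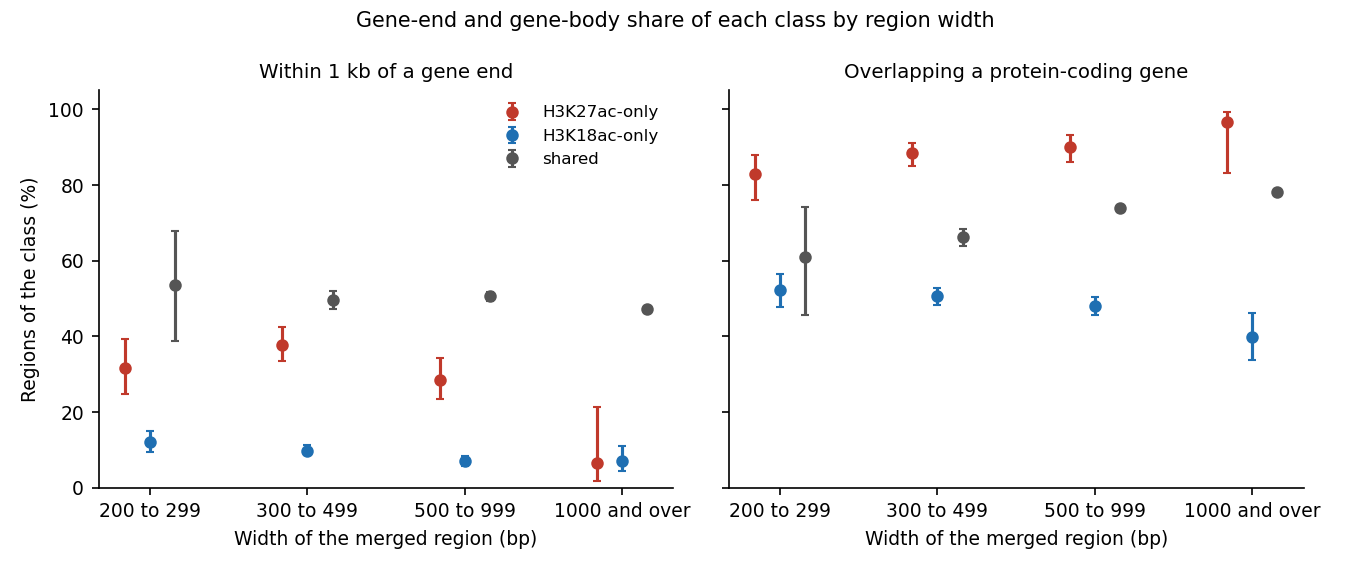
Share of the regions of each class (vertical axes, percent) within 1 kb of a gene end and overlapping a protein-coding gene, by width of the merged region. Bars are 95% Wilson intervals. H3K27ac-only regions of 300 to 499 bp are at gene ends in 37.9% of cases against 9.85% for H3K18ac-only, and 88.4% against 50.6% overlap a gene.

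Around start sites, H3K27ac-only regions leaned into the gene. RefSeq windows give a start and a strand, and the centre of each region was placed relative to the nearest start, leaving out chromosome 18. Of 878 H3K27ac-only regions, 28.6% had their centre within 1 kb of a start, 16.7% lay 1 to 5 kb downstream and 4.21% lay 1 to 5 kb upstream. At 5 to 50 kb the shares were 29.4% downstream and 12.1% upstream. H3K18ac-only regions (4272) had no such lean, with 7.23 and 6.74% at 1 to 5 kb downstream and upstream, and 28.4 and 27.9% at 5 to 50 kb. Within 1 kb of a start lay 8.57% of H3K18ac-only and 43.5% of 17741 shared regions. For shared regions the shares were 6.08 and 4.45% at 1 to 5 kb downstream and upstream, and 19.4 and 14.4% at 5 to 50 kb.

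**Figure D4:**
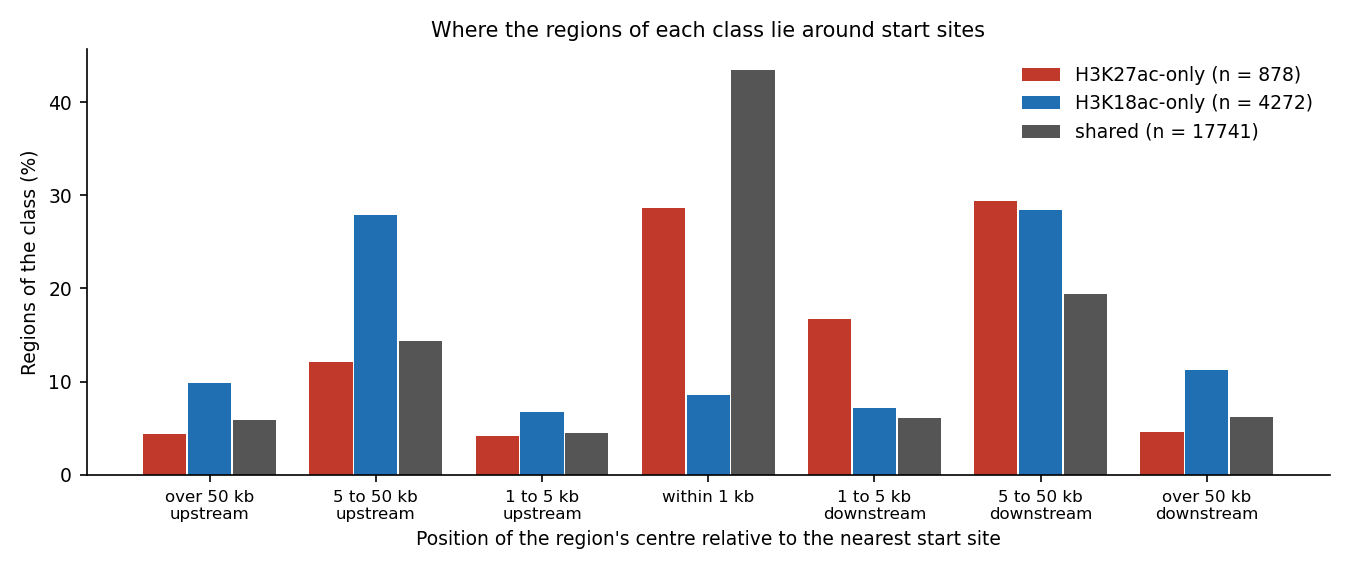
Share of the regions of each class (vertical axis, percent) by position of their centre relative to the nearest start site, from far upstream on the left to far downstream on the right. H3K27ac-only regions hold 16.7% at 1 to 5 kb downstream against 4.21% at the same distance upstream, and H3K18ac-only regions 7.23 and 6.74%.

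H3K27ac-only regions also lay closer to shared regions. The median distance was 1.94 kb, against 10.6 kb for H3K18ac-only, and 41.0 and 22.7% were within 1 kb of a shared region. A peak of the other mark in either list lay within 1 kb for 52.6% of H3K27ac-only and 31.6% of H3K18ac-only regions, so many mark-only regions lay beside a peak of the other mark. Leaving out those within 1 kb of a peak of the other mark gave 425 H3K27ac-only and 2981 H3K18ac-only regions, with a gene-end difference of 26.9 points.

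Genes were taken as every protein-coding gene that a region overlaps, widened by 1 kb, or else the nearest one by its ends, up to 50 kb away. Of 12097 genes with any LPD region, 810 (6.7%) had an H3K27ac-only region, 2183 (18%) an H3K18ac-only region and 9988 (82.6%) a shared region, and 131 had both mark-only kinds. Genes with more regions held mark-only regions more often, from 1.65% (H3K27ac-only) and 3.86% (H3K18ac-only) of genes with 1 region to 26.3 and 67.3% of genes with over 10. The classes chose these genes, so their lengths below are a description.

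The 10 genes with the most H3K27ac-only sequence held 2 to 7 such regions each. Rapgef1, which encodes an exchange factor for the small GTPase RAP1, had 7 H3K27ac-only regions with 4.05 kb, all inside the gene (chr2:29619720-29740364). Of these, 3 were H3K27ac-only in B cells too and 4 had no B cell peak of either mark. Over all regions of Rapgef1, H3K27ac covered 35.8 and 22.4 kb and H3K18ac 25.4 and 20.6 kb, which overlap. Ikzf1 encodes Ikaros, a zinc finger factor of lymphocyte development (chr11:11684962-11772930). It had 5 H3K27ac-only regions with 3.74 kb and none that were H3K18ac-only, beside 17 shared regions with 42.9 kb. H3K27ac covered 60.3 and 39.1 kb at Ikzf1 and H3K18ac 38.6 and 28.3 kb, and both H3K27ac values were above both H3K18ac values. Pou2f2, the gene of the B cell factor OCT2 (chr7:25087350-25180797), had 3 such regions with 2.72 kb inside the gene. H3K27ac covered 13.8 and 9.18 kb there and H3K18ac 7.06 and 4.32 kb, with no overlap.

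Ptpn6 encodes SHP-1, a phosphatase that restrains B cell receptor signalling, and held the widest H3K27ac-only region (chr6:124730943-124733144, 2202 bp). The H3K27ac lists covered 2088 and 1300 bp of it in LPD and 1941 and 1318 bp in B cells, while H3K18ac was at 0 in all 4 lists of both tissues. Over all regions of Ptpn6, H3K27ac covered 9.78 and 6.71 kb and H3K18ac 3.94 and 2.43 kb. Zmynd8, whose product reads acetylated histone tails, had 5 H3K27ac-only regions with 2.91 kb and 2 that were H3K18ac-only with 1.26 kb. None of the 5 had a B cell peak of either mark. Rasgrp1, an activator of RAS downstream of antigen receptors, had 4 close together, 3 of them H3K27ac-only in B cells as well. The others of the 10 were Sbk1, Hipk1, Plekho2 and Rassf4, with 2 or 3 regions each and 2.21 to 2.98 kb. Another wide H3K27ac-only region lay in Rassf4 (chr6:116670236-116671919, 1684 bp), where B cells had no peak and progenitor H3K27ac covered 503 bp in wild type and 1239 bp in the null.

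H3K27ac-only regions at gene ends were up to 1100 bp wide. The 5 widest were at Sbk1 (chr7:126293267-126294366), Fem1a, the head-to-head pair Vps53 and Tlcd3a, Dynll1, which encodes a dynein light chain, and the neighbours Ccnd3 and Bysl. At Ccnd3, the gene of cyclin D3, the region (chr17:47599665-47600607) was covered by 874 and 404 bp of H3K27ac in LPD and 838 and 504 bp in B cells. At Fem1a (chr17:56262444-56263485) H3K27ac covered 1042 and 622 bp in LPD and B cells had no peak of either mark.

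The 10 genes with the most H3K18ac-only sequence held 7 to 14 such regions each. The gene with the most was Col4a1, of a basement membrane collagen chain (chr8:11198423-11312889), with 14 regions and 11.7 kb. All 14 lay outside the gene, from 11148513 to 11183255 on chromosome 8, and 10 had no B cell peak. The widest H3K18ac-only region of all belongs to this run (chr8:11170339-11174302, 3964 bp). H3K18ac covered 3804 and 3583 bp of it in LPD and was at 0 in B cells, where H3K27ac covered 741 and 443 bp. The next widest regions lay further out in the same interval, 92.5 and 85.2 kb from any gene end (chr8:11102247-11105905, 3659 bp, and chr8:11094161-11097387, 3227 bp). Both had H3K27ac in B cells (3569 and 3659 bp, and 3217 and 3170 bp) and none in LPD, and H3K18ac in all 4 lists.

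Hivep3, which encodes a zinc finger protein that binds NF-kB motifs (chr4:119733759-120138045), had 10 H3K18ac-only regions with 8.64 kb, all inside the gene and 8 without a B cell peak. H3K18ac covered 17.7 and 15.4 kb over all its regions and H3K27ac 6.53 and 4.59 kb. Sik1, a salt-inducible kinase induced by cAMP signalling (chr17:31844248-31855804), had 9 with 6.28 kb around the gene, 8 of them without a B cell peak. Its shared sequence was 36.1 kb, and H3K18ac covered 41.2 and 39.99 kb against 27.4 and 24.97 kb of H3K27ac. Cxcr4, the receptor for the chemokine CXCL12 (chr1:128588199-128592299), had 13 with 5.80 kb, all outside the gene and within 50 kb of it. Of the 13, only 4 had no B cell peak, while 5 were shared in B cells and 2 were H3K27ac-only there. H3K18ac covered 16.4 and 12.1 kb at Cxcr4 and H3K27ac 7.75 and 4.15 kb. In B cells H3K27ac covered 12.98 and 12.86 kb there, more than in LPD. Ets2, an ETS transcription factor, had 8 with 5.34 kb beyond the gene, 4 of them without a B cell peak. H3K18ac covered 10.1 and 10.8 kb there and H3K27ac 2.97 and 2.32 kb.

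Vti1a, of a vesicle SNARE protein, had 7 with 7.22 kb, none of them free of B cell peaks. Tg, the thyroglobulin gene, had 9 with 6.68 kb. Sla, which encodes a Src-like adaptor of lymphocytes, overlaps the span of Tg (chr15:66780819-66831829 within chr15:66670754-66850721), so that a region there was counted for both. Ncald and Prkce, which encode a calcium sensor and a protein kinase C, had 13 and 12, all inside these long genes, and 13 and 10 of them had no B cell peak. Map10 was the gene assigned to 7 more. For each of the 10 genes, both H3K18ac lists covered more than both H3K27ac lists, and none had an H3K27ac-only region. The choice of these genes by H3K18ac-only sequence favours this order beforehand, so no conclusion is drawn from it. Among the 10 genes with the most H3K27ac-only sequence, the marks overlapped at Rapgef1, Sbk1, Zmynd8 and Plekho2. At the others both H3K27ac lists covered more.

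At gene ends, H3K18ac-only regions were up to 1416 bp wide. They lay at Lrp8, Card10, Cryaa, which encodes a lens crystallin, Il1r2, a decoy receptor for interleukin 1, and Tnxb, of an extracellular matrix protein. At Il1r2 (chr1:40084658-40085911) H3K18ac covered 1254 and 1089 bp in LPD and 1231 and 1020 bp in B cells, and H3K27ac covered 1209 and 1081 bp in B cells and none in LPD. At Cryaa (chr17:31680476-31681783) H3K18ac covered 967 and 1139 bp in LPD and B cells had none.

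The gene with the most shared sequence was Foxp1, which encodes a forkhead factor of B cell development (chr6:98925342-99522746). It had 47 shared regions with 94.7 kb, and H3K27ac covered 106.1 and 71.3 kb there and H3K18ac 107.3 and 73.4 kb. The genes Rftn1, Nfatc1, Ubac2, Sh3bp5, Prkce, Grb2, Ikzf1, Zmiz1 and Map3k1 followed, with 40.7 to 73.2 kb each. After the class II region, the widest shared regions lay in Ago2 (19872 bp), Mef2d (15298 bp), St3gal1 (15228 bp) and Nfatc1 (14757 bp).

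Within shared regions, the length covered by each mark was also compared. With 2 lists per mark, both lists of one mark can lie above both of the other where the marks do not differ. Were the 4 lists interchangeable, 1 mark or the other would do so with probability 0.333, the smallest p of the exact test. The counts below are thus a description. A difference in length was not tested. Both H3K27ac lists covered more than both H3K18ac lists in 3209 shared regions (17.7%), of which 72.4% lay at gene ends. The reverse held in 3539 (19.5%), of which 23.5% lay at gene ends. In the other shared regions the lists of the marks overlapped in length. A gap of at least 2 times between the marks, in all 4 pairings, was found in 60 regions for H3K27ac (0.33%) and in 306 for H3K18ac (1.68%). The widest of the 60 lay in Relt, a TNF receptor family gene (chr7:100853716-100857749), with 3671 and 3500 bp of H3K27ac and 1121 and 709 bp of H3K18ac. The widest of the 306 lay in the interval on chromosome 8 of the Col4a1 run (chr8:11106113-11115676), with 9419 and 9326 bp of H3K18ac and 3406 and 2720 bp of H3K27ac. In B cells, H3K27ac covered 9563 and 9555 bp of that region and H3K18ac 6927 and 7374 bp. A region inside Abcg1, a sterol transporter gene, had the same order: of 5398 bp (chr17:31071114-31076511), H3K18ac covered 5398 and 4897 bp and H3K27ac 2152 and 1113 bp.

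Members of B cell gene lists had both mark-only kinds, and which was more common in a list depended on the processing. Of the 24 lists, 6 had more members with an H3K27ac-only than with an H3K18ac-only region and 14 had fewer. With lists of equal peak number this was 14 and 5, and with genes overlapped within 1 kb 9 and 7. Beside the 6.7 and 18% over all genes with a region, of 21 B cell identity genes 9 had an H3K27ac-only region (42.9%) and 6 an H3K18ac-only region (28.6%). The first were led by Pou2f2, the kinase gene Blk (1.09 kb), Fcer2a, which encodes CD23 (0.937 kb), and Cd37 (0.774 kb). The second were led by Cd72 (1.07 kb), Ebf1 (0.907 kb), Pou2af1 and Ptprc. Of 21 B cell receptor signalling genes with a region, 8 had an H3K27ac-only region (38.1%), with Ptpn6, Prkcb and Malt1 ahead, and 11 an H3K18ac-only region (52.4%), with Syk (2.46 kb) and Rasgrp3 (2.25 kb) ahead. The order of the 2 counts of that list turned to 11 and 7 with equal peak number and 8 and 7 within 1 kb, while that of B cell identity stayed at 11 and 4 and at 7 and 2. These genes had more regions than most, with a median of 5 and 10 per member against 2 over all genes. Of all genes with 3 to 5 regions, 7.89% had an H3K27ac-only and 25.05% an H3K18ac-only region. With 6 to 10 regions the shares were 14.2 and 44.8%, and no difference from them was tested.

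MHC class I presentation and the cAMP response had opposite orders of the 2 counts, also under both alternatives, and no difference from the 6.7 and 18% over all genes was tested. Of all genes with 3 to 5 regions, 7.89% had an H3K27ac-only and 25.05% an H3K18ac-only region. Of 12 class I genes, 4 had an H3K27ac-only region (33.3%) and 0 an H3K18ac-only region, with a median of 3 regions per member. The 4 were the proteasome genes Psmb8 (1.03 kb) and Psmb9, the peptide transporter Tap1 and B2m, and the first 3 are neighbours. Of 22 cAMP and immediate early genes, 1 (Crtc2, 0.364 kb) had an H3K27ac-only region (4.55%) and 9 an H3K18ac-only region (40.9%), with a median of 4 regions per member. With equal peak number the counts were 3 and 6, and within 1 kb 1 and 5. The 9 included Sik1, Fos (3 regions, 1.66 kb), Dusp1 (1.02 kb) and Fosl2 (0.941 kb). Of 22 lymphoma oncogenes and suppressors, 3 had H3K27ac-only regions (Mcl1, Ccnd3 and Ccnd2) and 8 H3K18ac-only regions, led by Ccnd2 (2.57 kb), Pim1 (1.70 kb), Myc (1.21 kb) and Tnfaip3 (1.17 kb). The counts of that list were 7 and 6 with equal peak number and 2 and 2 within 1 kb.

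In the remaining B lineage and acetylation lists, 5 to 27.3% of members had an H3K27ac-only region and 7.14 to 45.5% an H3K18ac-only region. Over all genes with a region the shares were 6.7 and 18%. Early B cell development (27.3 and 45.5%) and germinal centre genes (23.1 and 38.5%) were highest. Both lists had a median of 8 regions per member, against 2 over all genes. Of all genes with 6 to 10 regions, 14.2% had an H3K27ac-only and 44.8% an H3K18ac-only region. The H3K18ac-only shares of both lists were thus near or below that of genes with as many regions, and no difference was tested. Early B cell development had 3 members with H3K27ac-only and 5 with H3K18ac-only regions of 11, the latter led by Foxo1 (1.76 kb) and Bach2 (1.67 kb). Germinal centre genes had 3 and 5 of 13, with Irf8 ahead (5 H3K18ac-only regions, 3.06 kb). Plasma cell genes had 1 and 4 of 11, with Xbp1 ahead (1.70 kb). The NF-kB pathway had 2 and 4 of 18, with Nfkb1 ahead (1.82 kb). MHC class II presentation had 2 and 3 of 14, and each of its 14 genes had shared regions. Acetylation writers had 2 (Naa60 and Ep300, 0.547 kb) and 1 (Ncoa2) of 14, erasers 1 and 4 of 17, and readers 2 and 4 of 17. Chromatin regulators had 1 and 2 of 20. With equal peak number the counts were 6 and 2 for the NF-kB pathway, 5 and 4 for MHC class II, 7 and 1 for writers, 4 and 3 for erasers, 6 and 4 for readers, and 2 and 2 for plasma cell genes and for chromatin regulators. Within 1 kb they were 2 and 0 for MHC class II, 2 and 1 for the NF-kB pathway, and 1 and 1 for plasma cell genes, writers and chromatin regulators. Early B cell development and germinal centre genes had more H3K18ac-only members in both.

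In lists of general cell function, 8.33 to 13.6% of members had H3K27ac-only regions and 4.17 to 16.7% H3K18ac-only regions. Ribosomal protein genes had 3 and 1 of 24, housekeeping genes 3 and 1 of 22, DNA damage and p53 genes 3 and 2 of 24, cell division genes 3 and 3 of 23, and metabolic genes 2 and 4 of 24. No T and NK cell, myeloid or erythroid gene had an H3K27ac-only region. Lists of 6 to 10 genes can hold none at the 6.7% over all genes with a region. The counts were 0 and 4 of 6 for T and NK cells (Il2rb, Tcf7, Klrb1c and Lck). For myeloid genes they were 0 and 3 of 10 (Cd33, Cebpb and Cebpa), and for erythroid genes 0 and 0 of 10. With equal peak number they were 0 and 1, 1 and 2, and 1 and 1. Stem and progenitor genes had 3 and 3 of 12. Of 18 non-blood control genes, 2 had any region and none a region of the 3 classes.

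H3K56ac in LPD, a mark on the globular part of histone H3 that the classes were not made from, was most common in shared regions. Its lists 1 and 2 had a peak in 90.6 and 92.2% of shared regions, 32.5 and 35.2% of H3K27ac-only regions and 15.3 and 16.5% of H3K18ac-only regions. The mark-only classes differed by 17.9 points, more than the spread between lists. An exact two-sided permutation test of the shares gave p = 0.333, the smallest it allows. It left out that both classes were read in the same 2 lists, so no conclusion is drawn from it. The difference of 17.9 points rests on the H3K27ac lists. Without list 1 of H3K27ac it was 0.344 points and without list 2 it was -2.37 points. It was 35.7 or 24.7 points without list 1 or 2 of H3K18ac. The classes lay further apart at gene ends. There H3K56ac was in 59.5% ± 4.07 (SD, n = 2 lists) of H3K27ac-only and 31.6% ± 5.09 of H3K18ac-only regions, and away from them in 21.2% ± 0.824 and 14.4% ± 0.481.

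**Figure D5:**
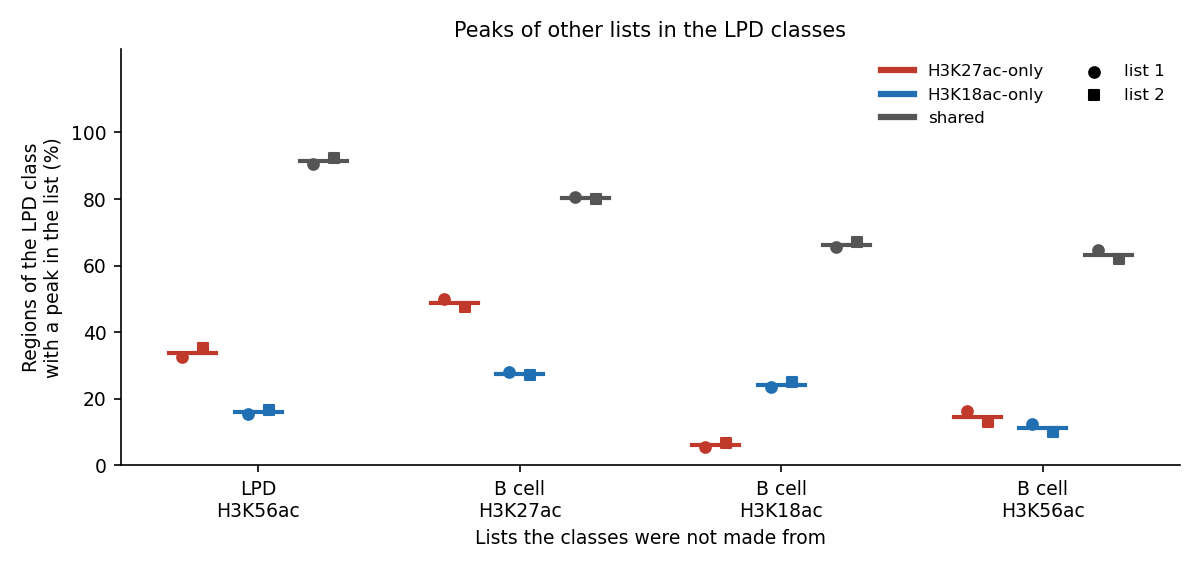
Share of the regions of each LPD class (vertical axis, percent) with a peak in lists that did not define the classes. Circles and squares are lists 1 and 2 and bars their mean. Shared regions are highest in each mark, 91.4% for H3K56ac in LPD, and H3K27ac-only regions have a B cell H3K18ac peak in 6.14% of cases against 24.2% for H3K18ac-only.

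Between the mark-only classes, B cell H3K27ac was more common in H3K27ac-only regions and B cell H3K18ac in H3K18ac-only regions. Within H3K18ac-only regions, a B cell peak of H3K27ac was the more common in both lists, though not at gene ends, where the mean shares were 32.9% for H3K27ac and 36.2% for H3K18ac. H3K27ac peaks of B cells were in 49.9 and 47.5% of H3K27ac-only regions and 27.9 and 27.2% of H3K18ac-only regions. H3K18ac peaks of B cells were in 5.47 and 6.81% and in 23.4 and 24.9%. The differences of 21.2 and -18.03 points were above the spread between lists. The exact permutation test gave p = 0.333 for each, again the smallest it allows and again for classes read in the same lists. Without 1 list of LPD the differences kept their sign, at 6.51 to 33.8 and -22.9 to -5.22 points. The first was 6.51 and 10.03 points without list 1 and 2 of H3K27ac and 33.8 without list 1 of H3K18ac. The second was -5.22 and -11.8 points without list 1 and 2 of H3K18ac. H3K56ac of B cells was in 14.6% ± 2.37 of H3K27ac-only and 11.3% ± 1.75 of H3K18ac-only regions (SD, n = 2 lists). This order held in 5 of 8 alternatives: the shares were 11.4 and 14.3% without list 1 of H3K27ac, 6.68 and 11.6% without list 2, and 6.32 and 10.3% away from gene ends. The CBP list of 1000 peaks met 4 H3K27ac-only regions (0.446%), 14 H3K18ac-only regions (0.321%) and 4.19% of shared regions. Shared regions are wider, which favours a higher share. In regions of 300 to 1000 bp the shares were 0.560, 0.389 and 2.21%.

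H3K56ac was more common in LPD than in B cells in each class. The mean shares were 33.8% ± 1.89 and 14.6% ± 2.37 in H3K27ac-only, 15.9% ± 0.892 and 11.3% ± 1.75 in H3K18ac-only, and 91.4% ± 1.17 and 63.3% ± 2.001 in shared regions (SD, n = 2 lists each). The exact two-sided permutation test gave p = 0.333 for each, the smallest it allows. Regions of each class were chosen by LPD peaks, which favours a higher share in LPD beforehand. The test therefore cannot speak to a difference between the tissues. The H3K56ac lists of LPD were also longer, with 28222 and 28934 peaks against 20392 and 18763.

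Few H3K18ac-only regions of LPD had the same state in B cells, where this class was small. B cells had 668 H3K18ac-only regions (1.98% of their regions) against 8003 H3K27ac-only (23.7%). Of the 4361 in LPD, 2745 (62.9%) had no B cell peak of either mark and 663 (15.2%) were shared in B cells. Another 251 (5.76%) were H3K27ac-only there and 121 (2.77%) H3K18ac-only. Of the 896 H3K27ac-only regions of LPD, 408 (45.5%) had no B cell peak, 312 (34.8%) were H3K27ac-only in B cells too, 30 (3.35%) were shared and 0 were H3K18ac-only, which allows up to 0.335% by the limit of 3 counts (95% Wilson upper limit 0.427%). The 312 were at gene ends in 45.8% of cases, the 408 in 15.7%. Shared regions of LPD were shared in B cells in 11088 of 18162 cases (61.1%) and had no B cell peak in 3081 (17.0%). Progenitor H3K27ac was in 16.1% of H3K27ac-only, 8.64% of H3K18ac-only and 57.3% of shared regions in wild type. In the Crebbp-null library it was in 8.26, 4.56 and 47.7%. Each genotype has 1 such list, and that of the null is shorter (13125 against 17124 peaks).

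Promoters with the start site in a region were few in the mark-only classes: 69 H3K27ac-only and 62 H3K18ac-only, against 6490 shared and 14133 with no region, of 21263 distinct windows. Median G+C content was 59.7, 63.0, 62.0 and 53% in that order. The ratio of CpG dinucleotides observed to expected was 0.73, 0.72, 0.82 and 0.35. It was over 0.6 in 68.1% of H3K27ac-only, 61.3% of H3K18ac-only and 81.9% of shared windows, in 65.4% of the 509 windows in regions of no class and in 31.1% of those with no region. The ETS motif was in 24 of 69 H3K27ac-only windows (34.8%), 7 of 62 H3K18ac-only windows (11.3%), 23.4% of shared and 11.6% of all windows. The CCAAT box was in 16 (23.2%), 3 (4.84%), 17.9 and 16.9%. The E-box was in 10 (14.5%), 14 (22.6%), 13.2 and 15.6%, the SP/KLF box in 44 (63.8%), 37 (59.7%), 66.5 and 46.2%, and the TATA box in 3 (4.35%), 6 (9.68%), 5.62 and 12.6%. The CRE was in 0 of 69, 2 of 62, 273 shared windows (4.21%) and 2.23% of all. Each match only says that these letters are in the window.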

How the data were processed

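Chromatin immunoprecipitation with sequencing was compared over 4 peak lists of Crebbp-null LPD, with the other 11 lists beside them. Bowtie2 2.1.0 and MACS2 2.0.10, beside Picard and bedtools, are the tools that the submitters' processing notes name, with mm10 as the build and no settings. Each list the authors deposited, called per library, gives positions only with no score or height, so read depth is unknown. The 8 peaks off the numbered and sex chromosomes were left in the lists and met no gene.

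Regions are the union of the 4 lists, merged where peaks overlap by at least 1 bp. Genes were 21887 protein-coding RefSeq genes (GRCm38.p6), and starts came from the RefSeq promoter table. Of 455 entries in 24 gene lists, 454 matched. List values were compared with exact permutation tests. Python 3.11.15, NumPy 2.4.6, pandas 2.3.3, SciPy 1.17.1 and Matplotlib 3.10.9 were used, and classes were tested on simulated data. Named genes are Crebbp, Ep300, per class the 10 with most class sequence, the 5 widest regions overall and at gene ends, and up to 4 members per list and class. Sla and the regions of unequal length in Relt, Abcg1 and near Col4a1 were chosen after their values were seen. The members and lists were chosen with earlier results of these data known. RNA-seq and input samples were not analysed here. Some list members that the rule would name are not reported here.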

Additional observations from a re-analysis of the deposited data

Results flagged for a closer look

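The order of the marks was opposite in LPD and wild-type B cells for peak number and gene-end share, in which the lists of the marks did not overlap. The log2 ratio of peak number, H3K18ac to H3K27ac, was 0.33 in LPD and -0.40 in B cells, with the same sign in all 4 pairings of each tissue. The gene-end share of peaks differed by -6.32 points in LPD and 5.65 points in B cells, H3K18ac minus H3K27ac, again with 1 sign in the 4 pairings of each. The share of peaks within 1 kb of a start site, a related measure, differed by -5.47 and 6.66 points, also without overlap. An exact two-sided permutation test of it gave p = 0.333 in each tissue, the smallest it allows. The difference between the tissues was not tested, since each has 2 lists per mark. Genotype, disease and sorting differ together between them and cannot be told apart.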

How the results depend on the processing

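Class sizes and the readouts of the mark-only classes depend on single lists, and the gene-end difference does not change sign in any of the 13 alternatives run for it. Read depth is unknown and limits each call of absence: a region without a peak may hold signal under the caller's threshold. Nearest and overlapping genes need not be the ones a region acts on. The cause was not tested for any of the changes below. With equal peak number or only peaks of at least 500 bp, fewer peaks enter and the wider ones are kept.

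H3K27ac-only regions numbered 2201 with lists of equal peak number, 443 with peaks within 500 bp merged and 425 with no peak of the other mark within 1 kb, and from 1032 to 4411 with 1 list left out. H3K18ac-only regions numbered 1676 with only peaks of at least 500 bp, 2491 with equal peak number and 2653 with merging, and from 4591 to 10476 with 1 list left out. Shared regions fell to 8890 with only peaks of at least 500 bp. The log2 ratio was 0.18 with equal peak number and from 0.058 to 3.34 with 1 list left out. In an alternative chosen after seeing the data, leaving out both lists numbered 1 gave 3034 H3K27ac-only and 9083 H3K18ac-only regions, and both numbered 2 gave 4665 and 10789.

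Median widths with only peaks of at least 500 bp were 788, 862 and 1506 bp for H3K27ac-only, H3K18ac-only and shared regions. H3K18ac-only regions were 589 bp with equal peak number, and with merging they were 647 bp and shared regions 1508 bp. Leaving out 1 list gave 285 to 487 bp for H3K27ac-only and 330 to 494 bp for H3K18ac-only regions. The gene-end difference was 30.2 points with a window of 2 kb, 51.3 with only peaks of at least 500 bp, where H3K27ac-only (60.7%) passed shared regions (54.6%), 35.5 with equal peak number and 14.4 to 29.6 with 1 list left out. It was 20.3 points at start sites, a measure chosen after seeing the data that counts regions on chromosome 18 as away from one.

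The difference in H3K56ac was 19.4 points in regions of 300 to 1000 bp, 27.9 at gene ends, 6.85 away from them, 26.7 with equal peak number and -2.37 to 35.7 with 1 list left out, reversed without list 2 of H3K27ac. For B cell H3K27ac the difference was 38.5 at gene ends, 10.6 away from them, 30.6 with equal peak number and 6.51 to 33.8 with 1 list left out. For B cell H3K18ac it was -18.3 in regions of 300 to 1000 bp, -24.7 at gene ends, -19.5 away from them, -11.3 with equal peak number and -22.9 to -5.22 with 1 list left out.

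Of 144 gene list counts under 2 alternatives, 108 stayed within 1.5 times. The order of the mark-only counts turned in some lists, most with equal peak number, as given with the lists. With a replicate block over the 2 same-numbered pairs, the list differences are the same by construction (0.33, 0.20, -0.13 and -6.32) with an exact sign-flip p of 0.5, the smallest it allows. The labels tie list numbers to no animal. The deviations of same-numbered lists over regions had a correlation of -0.02 over all regions and 0.24 over shared ones.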

Other observations

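The X chromosome had the lowest share of H3K18ac-only regions. Of its 707 LPD regions, 21 were H3K18ac-only (2.97%) and 21 H3K27ac-only (2.97%), and 322 were shared (45.5%). On the other chromosomes H3K18ac-only regions made up from 8.13% (chromosome 3) to 13.9% (chromosome 17) of regions, and H3K27ac-only regions from 1.12% (chromosome 16) to 3.14% (chromosome 7). Chromosome 15, with 351 H3K18ac-only regions of 2542 (13.8%), and chromosomes 8 and 12, with 13.0% each, were close to chromosome 17. These values were seen before they were chosen for mention and were not tested.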
